A study of Homo sapiens with 18 samples.

Results

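The 59 genes described here had high editing scores per site in HEK293T cells that expressed a YTHDF protein fused to an ADAR deaminase. A gene was included where its editing score divided by its number of edited sites was at least 50% in both polysome RNA and total RNA of at least 1 of 3 fusion lines, which took in 59 of the 8714 genes listed with edited sites in any line (0.677%). All 59 are annotated as protein coding. The genes were chosen by these editing values, which are given as a description and carry no test, whereas the RNA levels entered the choice only in that a gene must have reads in a line to be listed there. HEK293T is an established human embryonic kidney line. The lines compared expressed YTHDF3-ADAR, YTHDF2-ADAR or YTHDF1-ADAR, and every cell, whichever the line, received doxycycline (1 µg/mL, 24 h) to induce the fusion and then cycloheximide (100 µg/mL, 10 min), which holds ribosomes on mRNA. From each line, polysome RNA (pooled gradient fractions with more than 2 ribosomes) and total RNA were sequenced in 3 libraries each, giving 6 groups and 18 libraries of 42.7 to 67.5 M counts. A line without a fusion was not analysed here, so editing by the cells' own deaminases was not subtracted. Whether sites that already differ in the DNA were removed is not described in the sources used here. The labels state neither whether a line is 1 clone nor whether replicates are separate cultures, so p-values measure the spread between libraries, which may be technical.

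YTHDF1, YTHDF2 and YTHDF3 are cytoplasmic proteins that bind N6-methyladenosine (m6A), the most common internal mark of mRNA, and are known for roles in mRNA decay and translation. ADAR enzymes turn adenosine into inosine in double-stranded RNA, and inosine is read as G in sequencing, so an ADAR joined to an RNA-binding protein leaves A-to-G changes on the transcripts it meets. In the nervous system the natural enzyme ADAR2, product of ADARB1, recodes ion channel and receptor mRNAs. Many of the 59 genes are themselves best known from neurons, where their products release transmitter, receive it at the synapse or carry the signal onward.

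SST, which encodes the neuropeptide somatostatin, stood for both properties that recur below: editing near completion and a level that moved with other neuronal genes between libraries. Its promoter is shown because that gene is a classic target of cyclic AMP signalling through the palindromic cyclic AMP response element TGACGTCA. The RefSeq sequence of SST in GRCh38.p14 (chr3:187670345-187670644, minus strand), 250 bases before to 50 bases after the annotated start, holds the motif, in capitals, with its first base at -47 from the start:

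SST: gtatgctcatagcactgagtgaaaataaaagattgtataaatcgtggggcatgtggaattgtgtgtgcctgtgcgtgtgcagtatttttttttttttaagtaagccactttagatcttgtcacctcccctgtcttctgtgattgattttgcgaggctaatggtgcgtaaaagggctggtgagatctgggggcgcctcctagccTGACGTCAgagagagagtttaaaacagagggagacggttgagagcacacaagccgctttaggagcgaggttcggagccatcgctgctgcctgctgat

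Promoter sequences were found for 37 of the 59 genes. SST was the 1 gene of the 37 with that motif, a palindrome that reads alike on both strands, against 540 of 27305 promoters of the same 300 base length (1.98%). A match is a description of the letters and not evidence of binding.

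The labels were checked first. YTHDF1 averaged 70.9 ± 18.6, 93.3 ± 3.23 and 341 ± 25.2 CPM (read counts scaled to library size with TMM factors; mean ± SD, n = 3) in polysome RNA of YTHDF3-ADAR, YTHDF2-ADAR and YTHDF1-ADAR cells. YTHDF2 averaged 141 ± 33.4 CPM with YTHDF3-ADAR, 308 ± 5.66 CPM with YTHDF2-ADAR and 173 ± 6.67 CPM with YTHDF1-ADAR, and YTHDF3 averaged 81.3 ± 7.44, 61.0 ± 3.13 and 76.5 ± 3.73 CPM in the same order of lines, so each mean was highest in its own line, although YTHDF3 in YTHDF3-ADAR over YTHDF1-ADAR polysome RNA did not pass edgeR's test (log2 fold change 0.09, adjusted p = 0.628). All 10 HEK293T markers examined had counts in every library, and their summed level lay between 663 and 1870 CPM.

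Several libraries stood apart within their groups. Replicate 3 of YTHDF1-ADAR and replicate 2 of YTHDF2-ADAR, in both polysome and total RNA, had far lower levels of some neuronal and oligodendrocyte transcripts than the other replicates. Part of the brain-cell markers that are not among the 59 genes showed the same split. Since that list was chosen after its values were seen, it is a description and no separate support. The 5 oligodendrocyte markers summed to 0.461 to 0.576 CPM in those 4 libraries and to 10.6 to 25.8 CPM in the other 14. Of 33 brain markers that passed the count filter, 16 were below 50% of each other replicate in all 4. By cell type these were 3 of 8 pan-neuronal, 3 of 4 inhibitory, 2 of 2 excitatory and 4 of 7 striatal neuron markers. Among glial markers they were 3 of 4 of oligodendrocytes, 1 of 5 of astrocytes and 0 of 3 of microglia. The summed level of the 35 brain markers outside the 59 genes was 137 to 158 CPM in the 4 libraries and 181 to 229 CPM in the other 14, and 5 brain markers were at 0 counts in each low YTHDF2-ADAR library (NPY, NEUROD6 and TAC1 in both) and 3 and 4 in those of YTHDF1-ADAR, against 0 to 2 in each of the other 14. Of 7 striatal markers outside the 59 genes, DRD1, DRD2, TAC1 and RASGRP2 followed the split and PDE10A, RGS9 and GNAL did not, and their summed level was 45.9 to 52.2 CPM in the 4 libraries and 48.2 to 81.3 CPM in the other 14, which overlap. Replicate 1 of YTHDF3-ADAR also differed from its group, with NES at 1.36 CPM in polysome RNA against 6.20 and 5.78 CPM in the other replicates. The part that brain-cell RNA, or any other feature of these libraries, plays in the results was not tested. In bulk RNA, fewer cells of a type and less RNA per cell cannot be told apart.

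Editing of the 59 genes was far above that of other edited genes, as the rule requires. YTHDF3-ADAR took in most of them, 48 of its 7042 listed genes, followed by YTHDF1-ADAR with 27 of 6858 and YTHDF2-ADAR with 14 of 4547. Median editing per site of the genes that met the rule was 84.7% in polysome RNA and 86.3% in total RNA of YTHDF3-ADAR cells, 80.0% and 74.5% with YTHDF2-ADAR, and 81.6% and 84.1% with YTHDF1-ADAR. Over all listed genes the medians were 1.45% and 1.76% with YTHDF3-ADAR, 1.15% and 1.195% with YTHDF2-ADAR, and 1.83% and 2.01% with YTHDF1-ADAR. At the 99th percentile of all listed genes, the lower of the polysome and total values was 32.3% with YTHDF3-ADAR, 27.7% with YTHDF2-ADAR and 21.8% with YTHDF1-ADAR. Editing reached 90% or more in both RNAs for 16 genes in YTHDF3-ADAR, 3 in YTHDF2-ADAR and 9 in YTHDF1-ADAR cells.

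The number of sites per gene was near that of all listed genes in YTHDF3-ADAR cells, and its median was lower in the other lines. Genes that met the rule had a median of 3.5 sites in YTHDF3-ADAR, 1.5 in YTHDF2-ADAR and 2 in YTHDF1-ADAR cells, against 4, 3 and 4 over all listed genes. A single site carried the value in 12 of 48 (25%), 7 of 14 (50%) and 9 of 27 (33.3%) genes, against 20.6%, 32.2% and 23.7% of all listed genes. A gene with 1 site reaches a high or low ratio more readily than one with many, and the read depth behind each site is unknown. The tables hold 1 value per gene, line and RNA over the replicates, so no replicate error can be given for editing.

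**Figure D1:**
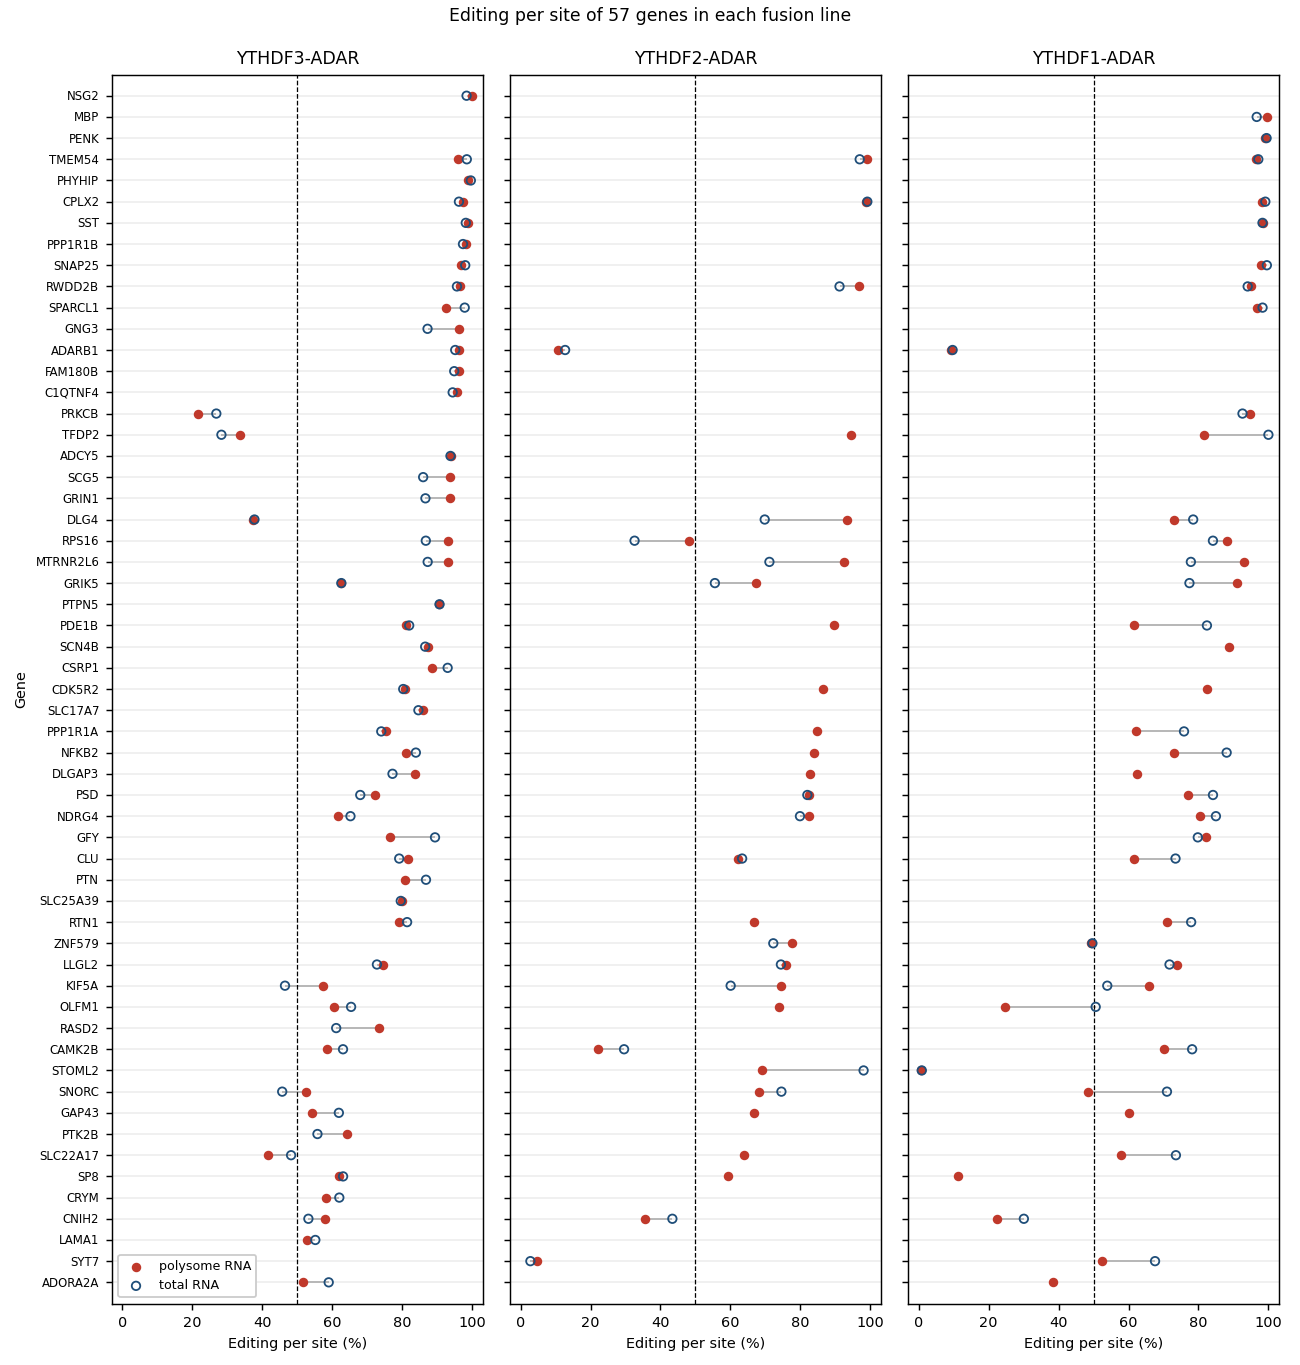
Editing per site (%) of 57 of the 59 genes in polysome RNA (filled) and total RNA (open) of YTHDF3-ADAR, YTHDF2-ADAR and YTHDF1-ADAR cells, 1 value per gene, line and RNA; the dashed line marks the 50% rule and a missing point means that the table gave no value. Polysome and total values lay close together for most genes, and the YTHDF2-ADAR panel is the emptiest.

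Of 14 striatal markers examined, 7 were among the 59 genes, where high editing follows from the rule. The markers were chosen after their values were seen, so nothing is read from that share. Of the 7 outside them, PDE10A had 12.2% in polysome RNA and 18.65% in total RNA of YTHDF3-ADAR cells, GNAL 10.46% and 14.7% and RASGRP2 4.22% and 4.90%, while DRD1, DRD2, TAC1 and RGS9 were not listed in any line. PPP1R1B, which encodes the phosphatase inhibitor DARPP-32, stood at 98.4% in polysome RNA and 97.4% in total RNA of YTHDF3-ADAR cells at 1 site, and the adenylyl cyclase ADCY5 at 94.1% and 93.8% over 7 sites. PTPN5, the striatal-enriched tyrosine phosphatase, had 90.4% and 90.7% over 4 sites. These 3 genes were listed in YTHDF3-ADAR cells alone. PENK, the precursor of enkephalin opioid peptides, was listed in YTHDF1-ADAR cells alone, at 99.1% and 99.5% at 1 site. ADORA2A, the adenosine receptor of the same neurons, was the member nearest to the threshold in YTHDF3-ADAR cells, with 51.6% and 58.97% over 2 sites. RASD2, a small GTPase, reached 73.2% and 61.1% over 5 sites.

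The phosphatase inhibitor PPP1R1A and the phosphodiesterase PDE1B, which breaks down cyclic nucleotides, carried more sites. PDE1B had 81.0% and 82.0% over 17 sites in YTHDF3-ADAR cells and 61.5% and 82.4% over 11 sites in YTHDF1-ADAR cells. PPP1R1A had 75.3% and 74.0% over 13 sites in YTHDF3-ADAR cells and 62.2% and 75.9% over 7 sites in YTHDF1-ADAR cells. In YTHDF2-ADAR both genes had a polysome value (89.7% and 84.8%) and no total RNA value.

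Genes of transmitter release were the next set. SNAP25, the membrane SNARE protein that drives vesicle fusion, was edited at 96.8% and 98.0% over 10 sites in YTHDF3-ADAR cells and at 98.0% and 99.6% over 2 sites in YTHDF1-ADAR cells. CPLX2, the complexin that clamps that fusion machinery, met the rule in every line, with 97.3% and 96.2% over 4 sites in YTHDF3-ADAR, 98.8% and 99.15% over 2 sites in YTHDF2-ADAR and 98.3% and 99.1% over 3 sites in YTHDF1-ADAR cells. SLC17A7, the vesicular glutamate transporter, had 85.85% and 84.6% at 1 site in YTHDF3-ADAR cells. The calcium sensor SYT7 was far lower in most lines, at 28.8% and 35.5% over 12 sites in YTHDF3-ADAR cells. It had 4.80% and 2.80% at 1 site in YTHDF2-ADAR cells, and met the rule with 52.55% and 67.6% over 6 sites in YTHDF1-ADAR cells. SST was edited at 98.7% and 98.2% over 7 sites in YTHDF3-ADAR cells and at 98.5% and 98.3% at 1 site in YTHDF1-ADAR cells.

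Receptors and scaffolds of the receiving side spanned a wider range. GRIN1, the obligatory subunit of NMDA receptors, had 93.75% and 86.6% at 1 site in YTHDF3-ADAR cells. The kainate receptor subunit GRIK5 met the rule in every line. In polysome and total RNA it had 62.5% and 62.6% over 8 sites in YTHDF3-ADAR cells. It had 67.3% and 55.6% over 3 sites in YTHDF2-ADAR, and 91.0% and 77.4% over 2 sites in YTHDF1-ADAR cells. DLG4, which encodes the postsynaptic scaffold PSD-95, stood at 37.4% and 37.7% over 17 sites in YTHDF3-ADAR cells, at 93.5% and 69.8% at 1 site in YTHDF2-ADAR cells and at 72.95% and 78.5% over 7 sites in YTHDF1-ADAR cells. DLGAP3, a partner of that scaffold, had 83.6% and 77.2% over 11 sites in YTHDF3-ADAR cells. CAMK2B, a calcium-dependent kinase subunit, had 58.35% and 63.1% over 14 sites in YTHDF3-ADAR, 22.25% and 29.6% over 5 sites in YTHDF2-ADAR and 70.2% and 78.2% over 8 sites in YTHDF1-ADAR cells. In PRKCB, a protein kinase C gene, 35 sites averaged 21.5% and 26.8% in YTHDF3-ADAR cells, while the 1 site listed in YTHDF1-ADAR cells had 94.7% and 92.6%.

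Other neuronal and glial genes followed. KIF5A, a neuronal kinesin that moves cargo along axons, carried the most sites, with 57.3% and 46.5% over 50 sites in YTHDF3-ADAR (below the rule in total RNA), 74.5% and 60.1% over 17 sites in YTHDF2-ADAR and 65.95% and 53.9% over 29 sites in YTHDF1-ADAR cells. NDRG4, an N-myc downstream regulated gene active in brain and heart, had 13 sites in each line, at 61.7% and 65.2% with YTHDF3-ADAR, 82.3% and 79.9% with YTHDF2-ADAR, and 80.5% and 85.0% with YTHDF1-ADAR. MBP, the myelin basic protein of oligodendrocytes, was listed in YTHDF1-ADAR cells alone, with 99.7% and 96.7% over 2 sites. SPARCL1, a matrix protein secreted by astrocytes, had 92.6% and 97.9% over 3 sites in YTHDF3-ADAR cells and 96.8% and 98.3% at 1 site in YTHDF1-ADAR cells. CLU, the extracellular chaperone clusterin, had 3 sites in each line, with 81.7% and 79.1% with YTHDF3-ADAR, 62.1% and 63.35% with YTHDF2-ADAR, and 61.5% and 73.4% with YTHDF1-ADAR. The growth cone protein GAP43 had 54.2% and 61.9% over 12 sites in YTHDF3-ADAR cells.

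A further set of members, most of them known from neurons, met the rule mostly in YTHDF3-ADAR cells. RTN1, a reticulon of the endoplasmic reticulum, had 78.9% and 81.4% over 7 sites there and 70.9% and 77.9% over 6 sites with YTHDF1-ADAR. SCG5, a chaperone of the secretory pathway, had 93.8% and 86.0% over 2 sites, and SCN4B, a sodium channel subunit, 87.4% and 86.6% over 3 sites. CDK5R2, an activator of the kinase CDK5, had 80.8% and 80.3% over 5 sites, OLFM1 60.4% and 65.4% over 6 sites, and the tyrosine kinase PTK2B 64.2% and 55.75% over 2 sites. CSRP1, CRYM and the transcription factor SP8 stood at 88.5%, 58.2% and 61.8% in polysome RNA and at 93.0%, 62.0% and 63.1% in total RNA of the same cells.

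Genes without a mainly neuronal role followed, and several had like values in every line. Whether such sites are A-to-G differences in the DNA was not tested. RWDD2B was edited at its 1 site at 96.4% and 95.6% in YTHDF3-ADAR, 96.9% and 91.2% in YTHDF2-ADAR and 94.9% and 94.1% in YTHDF1-ADAR cells. TMEM54 had 2 sites in each line, at 95.8% and 98.5% with YTHDF3-ADAR, 98.9% and 97.0% with YTHDF2-ADAR, and 96.5% and 97.1% with YTHDF1-ADAR. LLGL2, a regulator of epithelial polarity, had 1 site at 74.4% and 72.8% with YTHDF3-ADAR, 75.8% and 74.4% with YTHDF2-ADAR, and 74.0% and 71.7% with YTHDF1-ADAR. NFKB2, a subunit of the NF-kB transcription factor, had 81.0% and 83.9% over 10 sites in YTHDF3-ADAR and 72.9% and 88.1% over 9 sites in YTHDF1-ADAR cells. The mitochondrial membrane protein STOML2 was not listed in YTHDF3-ADAR cells and had 1 site at 69.1% and 98.1% with YTHDF2-ADAR, but 0.689% and 0.881% in YTHDF1-ADAR cells. RPS16, a protein of the small ribosomal subunit, had 93.2% and 86.7% at 1 site with YTHDF3-ADAR. It had 48.2% and 32.6% over 2 sites with YTHDF2-ADAR, and 88.2% and 84.1% at 1 site with YTHDF1-ADAR. The RPS16 lines thus differ in the number of sites averaged. MTRNR2L6 had 93.1% and 87.3% with YTHDF3-ADAR, 92.4% and 71.15% with YTHDF2-ADAR, and 92.9% and 77.8% with YTHDF1-ADAR at 1 site. RPS16 has 6 named copies in the annotation and MTRNR2L6 is 1 of 13 named MTRNR2L genes, all close to a mitochondrial RNA gene in sequence, so reads of these genes may be split or misplaced and their values are uncertain.

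ADARB1, the gene of the natural deaminase ADAR2, was edited at 96.1% in polysome RNA and 95.15% in total RNA over 8 sites in YTHDF3-ADAR cells. In YTHDF2-ADAR cells it had 10.6% and 12.7% over 4 sites, and in YTHDF1-ADAR cells 9.26% and 9.69% over 20 sites. The sites counted differ between lines, so the lines were not compared at the same positions.

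Sharing between lines was limited by which genes each table listed. The rule was met in YTHDF3-ADAR alone by 29 genes, in YTHDF2-ADAR alone by 3 (SNORC, STOML2 and ZNF579) and in YTHDF1-ADAR alone by 6 (MBP, PENK, PRKCB, SLC22A17, SYT7 and TFDP2). YTHDF3-ADAR and YTHDF1-ADAR shared 10, and YTHDF2-ADAR and YTHDF1-ADAR shared 2, DLG4 and KIF5A. All lines shared 9, namely CLU, CPLX2, GRIK5, LLGL2, MTRNR2L6, NDRG4, PSD, RWDD2B and TMEM54. Of the 45 genes that did not meet the rule in YTHDF2-ADAR cells, 29 were not listed there, 11 had no total RNA value and 5 were listed below it. Of the 32 that did not in YTHDF1-ADAR cells, 20 were not listed, 6 had no total RNA value and 6 were below, and of the 11 in YTHDF3-ADAR cells, 4 were not listed and 7 were below.

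Values near the threshold show how sharp the rule is. The lower of both values just inside was 51.6% for ADORA2A, 52.8% for LAMA1 and 53.2% for CNIH2 in YTHDF3-ADAR cells, and just outside it was 49.9% for YIF1A, 49.0% for RIPOR2 and 48.4% for TBCA. In YTHDF2-ADAR cells GRIK5 (55.6%), KIF5A (60.1%) and CLU (62.1%) were inside, and ENO2 (49.5%), PPIP5K1 (45.1%) and MAP1A (43.6%) outside. In YTHDF1-ADAR cells SYT7 (52.55%), KIF5A (53.9%) and SLC22A17 (57.8%) were inside, and ZNF579 (49.3%), SNORC (48.3%) and ALDOC (46.2%) outside.

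Editing in polysome RNA and total RNA differed by at most 10 percentage points for 46 of 48 genes in YTHDF3-ADAR, 9 of 14 in YTHDF2-ADAR and 17 of 27 in YTHDF1-ADAR cells. In the authors' deposited table, an adjusted p under 0.05 for that difference was given for 0 of these genes in YTHDF3-ADAR (3.55% of all listed genes), 2 in YTHDF2-ADAR (1.39%) and 6 in YTHDF1-ADAR cells (2.11%). Since the rule used both values, nothing is read from these counts. By the authors' deposited table, DLG4 and MTRNR2L6 were more edited on polysomes of YTHDF2-ADAR cells, with natural log odds ratios of 1.82 and 1.59. In the authors' deposited table for YTHDF1-ADAR cells, KIF5A was more edited on polysomes (0.504) and PDE1B (-1.08), PPP1R1A (-0.647), CLU (-0.547), CAMK2B (-0.418) and SNAP25 (-1.55) less, again as natural log odds ratios.

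Most of the 59 genes were transcripts of low level. Their median was 1.62 CPM per kilobase of exon in polysome RNA and 1.88 in total RNA of YTHDF3-ADAR cells, 0.813 and 0.983 with YTHDF2-ADAR, and 0.935 and 1.21 in YTHDF1-ADAR cells. For the 8642 edited genes that passed the count filter, the same medians lay between 6.28 and 6.91 CPM per kilobase. Of the 59, 58 passed that filter, and FAM180B, with 0 to 6 counts per library, did not. The highest level per kilobase was that of ADARB1 in polysome RNA of YTHDF3-ADAR cells (150) and of RPS16 in the other groups (206 to 247).

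The level of many of these genes collapsed in the same 4 libraries. Of the 58 genes that passed the filter, 25 were below 50% of each other replicate of their group in replicate 3 of YTHDF1-ADAR and replicate 2 of YTHDF2-ADAR, in polysome and in total RNA alike, against 371 of 26804 genes (1.38%). At a limit of 10%, this held for 6 of 58 genes, among them NSG2, PENK, PHYHIP, PTN and SNAP25, against 100 genes in all (0.373%). Among the 8642 edited genes that passed the filter, 39 showed the pattern at 50%, and 25 of these (64.1%) were among the 59. The other 14 included ASIC4, ATP1A4, ELAVL3, KCNJ9, MAP1LC3A, NPR2, PTPRN, RASGRP2, RUNDC3A, SLC12A5, TTC9B and TUBA4A. The pattern was defined after the values had been seen.

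SNAP25 shows the size of the split. In polysome RNA it had 16.3, 11 and 7.66 CPM in YTHDF3-ADAR replicates 1 to 3, 7.77, 0.132 and 9.54 CPM in YTHDF2-ADAR, and 8.25, 6.25 and 0.238 CPM in YTHDF1-ADAR replicates. In total RNA the values were 15.7, 11.6 and 13.7 CPM with YTHDF3-ADAR, 9.43, 0.0768 and 6.67 CPM with YTHDF2-ADAR, and 10.4, 11.6 and 0.146 CPM with YTHDF1-ADAR. Replicate 2 of YTHDF2-ADAR rested on 10 counts in polysome RNA and 4 in total RNA, and replicate 3 of YTHDF1-ADAR on 13 and 6, while every other library had 283 to 861. The remaining replicates of YTHDF2-ADAR and YTHDF1-ADAR lay close to one another, so the low libraries set most of the spread within their groups.

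The opioid precursor PENK was lower still, at 0.0132 CPM in polysome RNA and 0.0384 CPM in total RNA of YTHDF2-ADAR replicate 2, against 2.24 to 3.71 CPM in the other replicates of that line. Replicate 3 of YTHDF1-ADAR held 1 count of PENK in polysome RNA and 0 in total RNA, against 122 to 186 in the other replicates. SST had 2.88, 1.77 and 1.27 CPM in YTHDF3-ADAR, 1.19, 0.0396 and 1.56 CPM in YTHDF2-ADAR and 1.15, 1.10 and 0.165 CPM in YTHDF1-ADAR polysome RNA.

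MBP was less extreme, with 12.4, 10.7 and 9.50 CPM in YTHDF3-ADAR, 5.26, 1.73 and 6.58 CPM in YTHDF2-ADAR and 7.84, 8.35 and 3.54 CPM in YTHDF1-ADAR polysome RNA. CPLX2 had 7.25, 4.23 and 3.28 CPM with YTHDF3-ADAR, 3.93, 0.488 and 4.22 CPM with YTHDF2-ADAR, and 3.60, 3.33 and 0.587 CPM with YTHDF1-ADAR. In YTHDF2-ADAR and YTHDF1-ADAR cells the lowest replicate was the one in which SNAP25 was lowest.

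**Figure D2:**
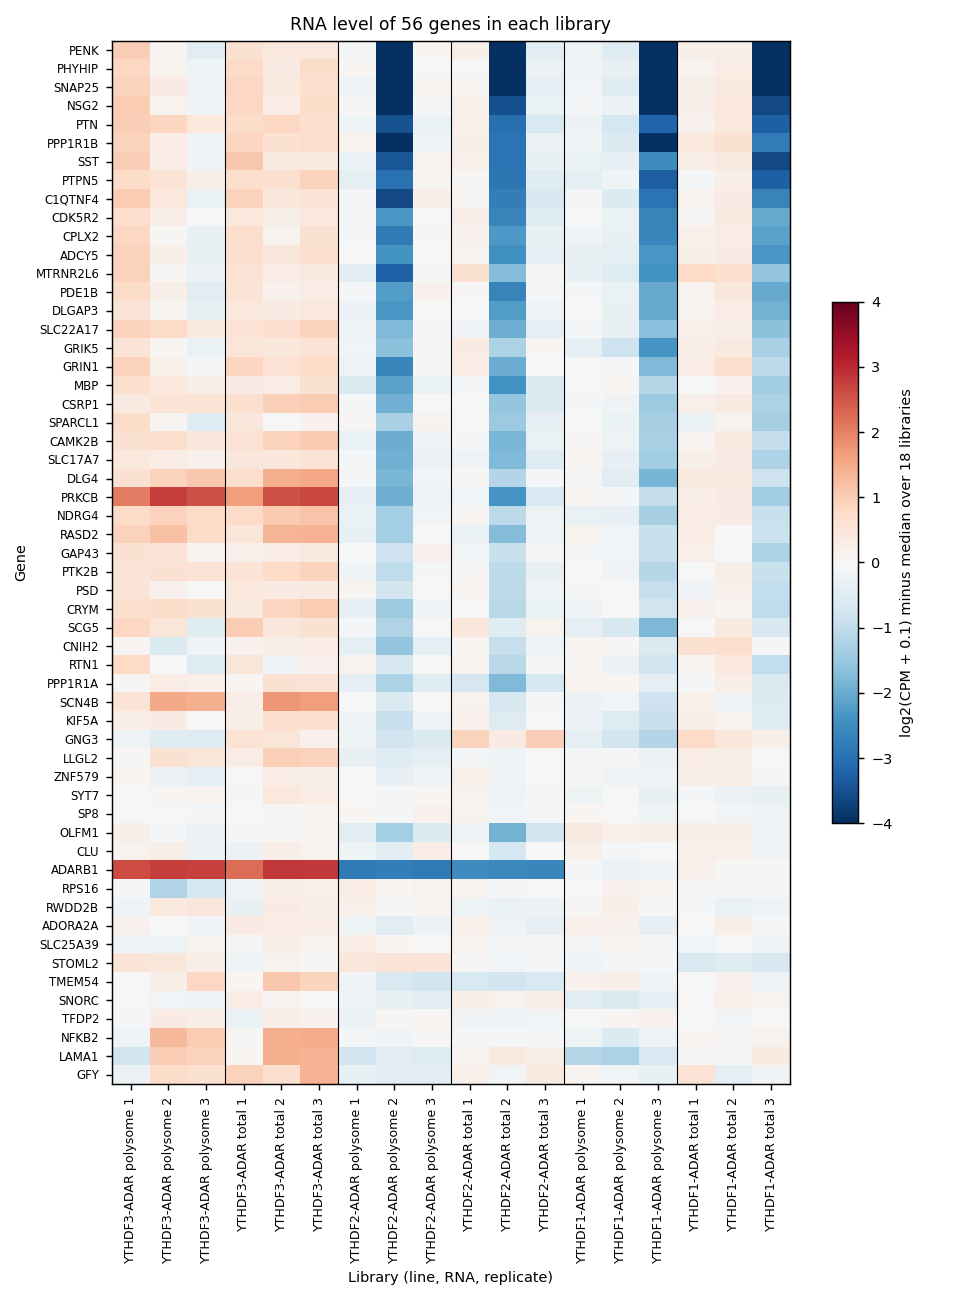
Level of 56 of the 58 genes that passed the count filter in each of 18 libraries (columns, by line, RNA and replicate), as log2(CPM + 0.1) minus the gene's median over the libraries, with colours limited at -4 and 4. The upper rows are dark blue in replicate 2 of YTHDF2-ADAR and replicate 3 of YTHDF1-ADAR, while ADARB1 and PRKCB are red in the YTHDF3-ADAR columns.

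Other genes of the 59 did not move with those libraries. RWDD2B had 14.9, 21.4 and 22.7 CPM in YTHDF3-ADAR, 18.9, 16.0 and 17.4 CPM in YTHDF2-ADAR and 17.1, 19.4 and 16.9 CPM in YTHDF1-ADAR polysome RNA, and the groups overlapped. TMEM54 had 11.6, 13.5 and 20.4 CPM with YTHDF3-ADAR, 10.4, 7.39 and 6.66 CPM with YTHDF2-ADAR, and 12.8, 13.6 and 10.4 CPM with YTHDF1-ADAR, and replicate 1 of YTHDF2-ADAR reached the level of the lowest YTHDF1-ADAR library. CLU ranged from 1.92 to 3.89 CPM and ADORA2A from 4.39 to 7.55 CPM over all 18 libraries. ADORA2A shares most of its span with the annotated gene SPECC1L-ADORA2A on the same strand, so its level and editing are uncertain. SLC25A39, a mitochondrial carrier, ranged from 111 to 157 CPM.

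**Figure D3:**
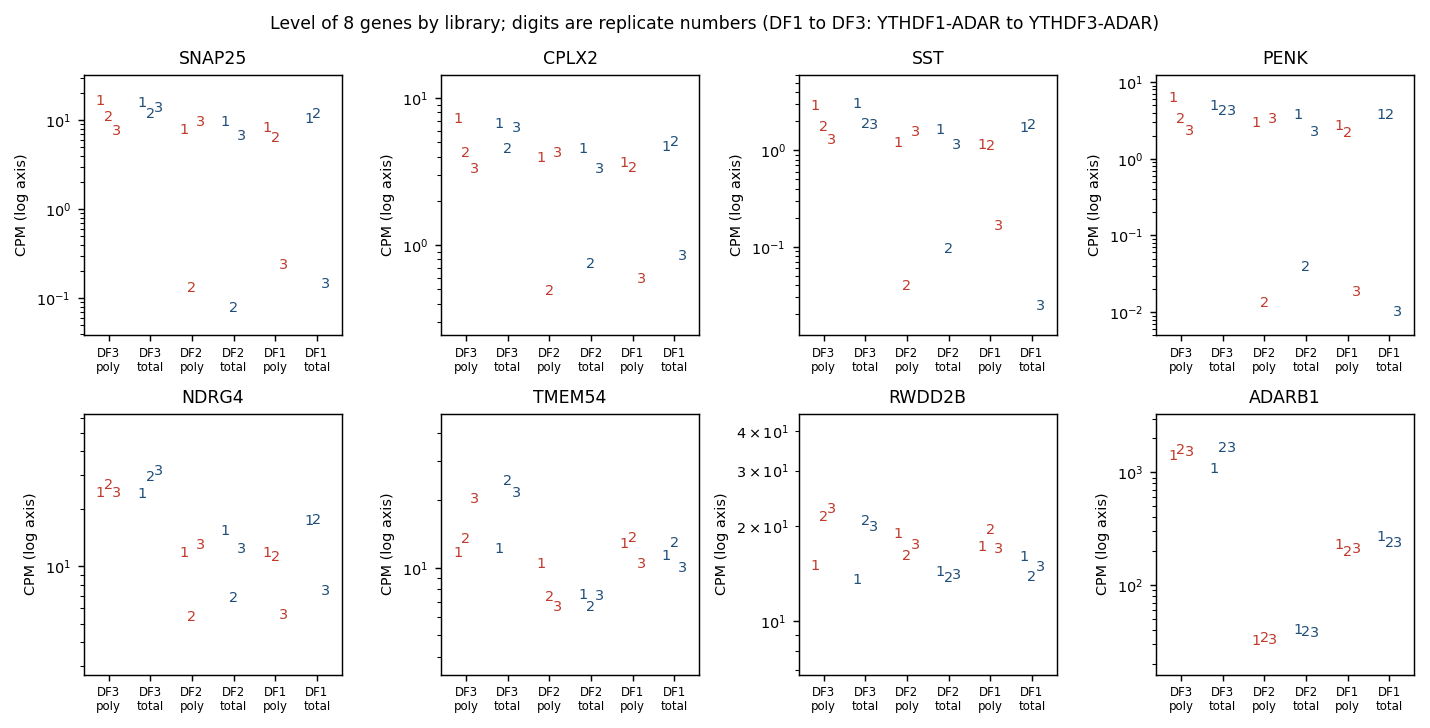
Level (CPM, log axis) of 8 genes in each library, with digits for the replicate number, polysome RNA in red and total RNA in blue; DF3, DF2 and DF1 stand for YTHDF3-ADAR, YTHDF2-ADAR and YTHDF1-ADAR, and the PENK library at 0 is drawn at 0.01. Replicate 2 of YTHDF2-ADAR and replicate 3 of YTHDF1-ADAR sit far below for SNAP25, CPLX2, SST and PENK, are lowest in their groups for NDRG4, and lie close to the others for RWDD2B.

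Genes that collapsed in the 4 libraries and genes that did not were both highly edited, which the rule fixed in advance. The medians below are of the values that chose the genes, split by a pattern defined after the levels had been seen. They are a description and carry no test. The 25 met the rule in 21 cases in YTHDF3-ADAR, 4 in YTHDF2-ADAR and 12 in YTHDF1-ADAR cells, and the other 34 in 27, 10 and 15 cases. In YTHDF3-ADAR cells the median editing in polysome RNA was 93.1% for the qualifying genes of the 25 and 76.5% for those of the 34, with 93.0% and 79.1% in total RNA. In YTHDF2-ADAR cells the medians were 92.9% for the 25 and 76.7% for the 34 in polysome RNA, but 70.5% and 77.2% in total RNA, the other way round. In YTHDF1-ADAR cells they were 94.85% and 76.9% in polysome RNA and 89.5% and 84.1% in total RNA. Of the 25, 16 were not listed in YTHDF2-ADAR cells. Of the 35 brain markers outside the 59 genes, 11, 9 and 10 were listed in YTHDF3-ADAR, YTHDF2-ADAR and YTHDF1-ADAR cells, and the neuronal calcium sensor SYT1 stood at 37.9% and 45.15% over 23 sites in YTHDF3-ADAR cells. GAD1, an enzyme of GABA synthesis, had 36.1% and 42.0% over 9 sites there. These were the 2 highest of the 11, and the other 9 ran from 1.98% (SYN1) to 21.3% (NRGN) in polysome RNA.

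**Figure D4:**
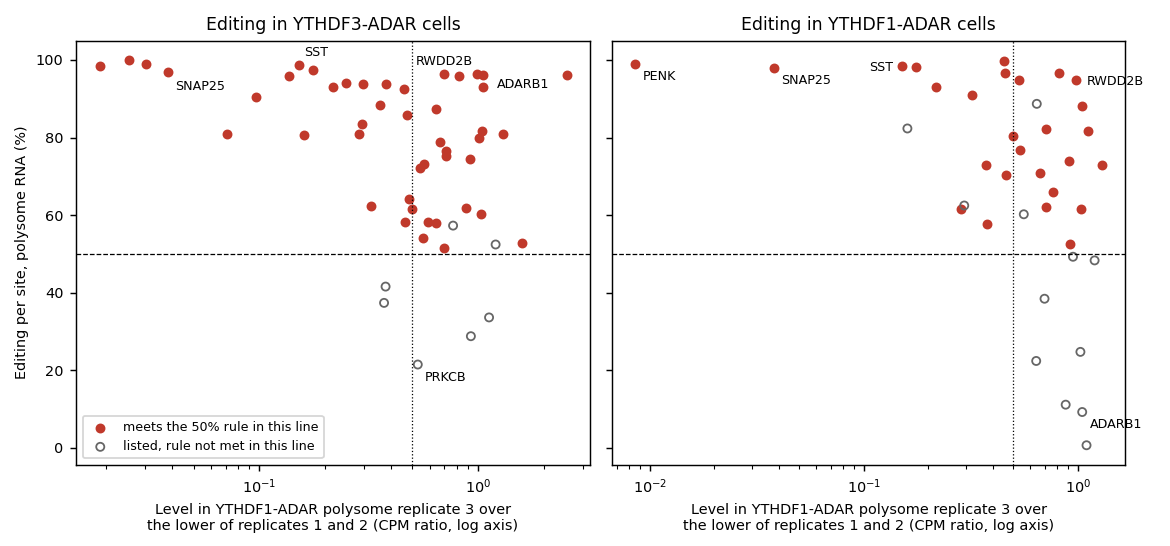
Editing per site in polysome RNA (%) of YTHDF3-ADAR cells (left) and YTHDF1-ADAR cells (right) against the level in YTHDF1-ADAR polysome replicate 3 over the lower of replicates 1 and 2 (CPM ratio, log axis), 1 point per gene shown that is listed in that line. Genes left of the dotted line (a ratio of 0.5) include SNAP25, SST and PENK near the top, and genes right of it, such as RWDD2B and ADARB1, spread over the whole range in YTHDF1-ADAR cells.

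Whether polysomes held more or less of these transcripts was tested in each line with edgeR's quasi-likelihood test and Benjamini-Hochberg adjustment over 26804 genes. STOML2, a mitochondrial scaffold protein, was higher on polysomes in every line, and GNG3, a neuronal G protein subunit, was lower in every line. In YTHDF3-ADAR cells 3 of 58 genes passed adjusted p under 0.05, 1 higher and 2 lower, against 20.1% of all genes. In YTHDF2-ADAR cells 3 passed, 1 higher and 2 lower, against 15.8%, and in YTHDF1-ADAR cells again 3, 1 higher and 2 lower, against 21.2%. Genes called higher were 8.01%, 6.71% and 9.26% of all genes in YTHDF3-ADAR, YTHDF2-ADAR and YTHDF1-ADAR cells, and genes called lower 12.1%, 9.04% and 11.9%. A count of 3 of 58 is a smaller share than the totals, but this fit did not pair libraries by replicate number. The SE of SNAP25 in YTHDF1-ADAR cells was 1.25 with all libraries and 0.31 without the libraries that stood apart. Nothing is therefore read from the smaller share, and counts with pairing are given below. The median log2 fold change of the 58 was -0.195, 0.042 and -0.334 in YTHDF3-ADAR, YTHDF2-ADAR and YTHDF1-ADAR cells, beside -0.053, 0.035 and 0.033 over all genes.

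STOML2 had 242, 233 and 202 CPM in polysome RNA against 153, 186 and 177 CPM in total RNA of YTHDF3-ADAR cells, and the groups did not overlap. In YTHDF2-ADAR cells it had 233, 241 and 242 CPM against 174, 156 and 163 CPM, and in YTHDF1-ADAR cells 151, 160 and 166 CPM against 112, 121 and 108 CPM. The log2 fold change was 0.39 ± 0.10 with YTHDF3-ADAR (SE; edgeR adjusted p = 0.00925), 0.53 ± 0.10 with YTHDF2-ADAR (adjusted p = 0.0015) and 0.49 ± 0.10 with YTHDF1-ADAR (adjusted p = 0.00221).

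GNG3, a transcript of low level, had 1.22, 0.993 and 0.968 CPM in polysome RNA against 2.17, 2.04 and 1.62 CPM in total RNA of YTHDF3-ADAR cells. It had 1.24, 0.792 and 0.915 CPM against 2.69, 1.80 and 2.92 CPM in YTHDF2-ADAR cells, and 1.06, 0.818 and 0.568 CPM against 2.46, 1.96 and 1.67 CPM in YTHDF1-ADAR cells. Every polysome library lay below every total RNA library of its line. The log2 fold change was -0.88 ± 0.26 with YTHDF3-ADAR (edgeR adjusted p = 0.0242), -1.33 ± 0.26 with YTHDF2-ADAR (adjusted p = 0.00274) and -1.30 ± 0.26 with YTHDF1-ADAR (adjusted p = 0.00262). SNORC, a proteoglycan gene of cartilage, was lower on polysomes of YTHDF2-ADAR cells (-0.51 ± 0.12, edgeR adjusted p = 0.0094) and of YTHDF1-ADAR cells (-0.58 ± 0.12, adjusted p = 0.00357). SNORC overlaps GIGYF2 on the same strand and GNG3 lies within HNRNPUL2-BSCL2 on the other strand, so reads of both may be misplaced.

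RPS16 was lower on polysomes of YTHDF3-ADAR cells, with 556, 252 and 355 CPM against 526, 692 and 675 CPM in total RNA, where replicate 1 overlapped. Its log2 fold change was -0.70 ± 0.20 (edgeR adjusted p = 0.0195). Of 75 cytosolic ribosomal protein genes, 59 were lower and 0 higher on polysomes of YTHDF3-ADAR cells, while 2 were lower and 0 higher in YTHDF2-ADAR cells and 2 lower and 1 higher in YTHDF1-ADAR cells. Whether the polysome change of RPS16 differed between lines is given below.

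Settings moved these counts. With the replicate number as a block, which pairs polysome and total RNA within a line, 10 genes passed in YTHDF3-ADAR (1 higher, 9 lower), 8 in YTHDF2-ADAR (2 higher, 6 lower) and 18 in YTHDF1-ADAR cells (2 higher, 16 lower). Under the same block 33.7% of all genes passed in YTHDF3-ADAR (13.6% higher, 20.1% lower), 30.4% in YTHDF2-ADAR (15.5% higher, 15% lower) and 36.7% in YTHDF1-ADAR cells (18.7% higher, 18% lower). Without normalization factors, which shifts the median of all genes in YTHDF1-ADAR cells to 0.462, the split turned to 4 higher and 0 lower in YTHDF3-ADAR, 8 higher and 1 lower in YTHDF2-ADAR, and 8 higher and 1 lower in YTHDF1-ADAR cells, and the calls of SNORC and RPS16 were lost (edgeR adjusted p = 0.106 to 0.45). Of all genes, 25.3% were then higher and 6.22% lower in YTHDF3-ADAR, 33.9% and 5.09% in YTHDF2-ADAR, and 40.6% and 5.70% in YTHDF1-ADAR cells. Without the 4 libraries that stood apart, 2, 1 and 2 genes passed in YTHDF3-ADAR, YTHDF2-ADAR and YTHDF1-ADAR cells, against 12.9%, 3.69% and 5.92% of all genes, and GNG3 was lower in every line (adjusted p = 0.0212, 0.0156 and 0.0197 by edgeR). STOML2 then kept its call in YTHDF3-ADAR (adjusted p = 0.0368) and lost it in YTHDF2-ADAR and YTHDF1-ADAR cells (0.068 and 0.0877), as did SNORC (0.113 and 0.0522) and RPS16 in YTHDF3-ADAR cells (0.0624). With fewer libraries, the log2 fold changes of the lost calls stayed near those with all: for STOML2 0.49 without the 4 and 0.53 with them in YTHDF2-ADAR cells, and 0.42 and 0.49 in YTHDF1-ADAR cells. For SNORC they were -0.53 and -0.51 in YTHDF2-ADAR and -0.64 and -0.58 in YTHDF1-ADAR cells, and for RPS16 -0.70 in both. In YTHDF3-ADAR cells 1 gene passed without total RNA replicate 2 or without polysome replicate 2 or 3, for which the share of all genes is not given.

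The polysome change did not pass a test of difference between lines for any of the 58 genes (0 calls, 0.00% of all genes, in each of the 3 comparisons by edgeR and by DESeq2 for these genes). At an unadjusted p under 0.05, edgeR gave 1 of 58 genes, RPS16, for YTHDF3-ADAR against YTHDF2-ADAR (2.99% of all genes) and against YTHDF1-ADAR (3.27%), and 0 between the other two (0.619%), and DESeq2 gave 2 genes against YTHDF1-ADAR, 1 against YTHDF2-ADAR and 0 between the other two. Without polysome replicate 1 of YTHDF3-ADAR, 1 gene passed adjustment in each comparison with YTHDF3-ADAR. The share of all genes is given neither for that refit nor for the unadjusted DESeq2 counts. These numbers do not show that the change was alike in the lines.

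Where YTHDF3-ADAR was compared with another line, each called gene except RPS16 was higher in YTHDF3-ADAR cells. Since 48 of the 59 genes entered through the YTHDF3-ADAR table, 29 of them through it alone, that direction is partly fixed by the choice of genes and the counts are given as a description. In polysome RNA, YTHDF3-ADAR against YTHDF2-ADAR gave 14 of 58 genes (13 higher, 1 lower), against 25.1% of all genes, and YTHDF3-ADAR against YTHDF1-ADAR gave 12 (11 higher, 1 lower), against 23.3%. In total RNA the counts were 15 (15 higher, 0 lower), against 22.8%, and 9 (9 higher, 0 lower), against 18.1%. YTHDF2-ADAR against YTHDF1-ADAR gave 2 genes in polysome RNA (2.35% of all genes) and 2 in total RNA (1.83%), ADARB1 lower and STOML2 higher in both. Of all genes, 13.6% and 15.2% were higher and 11.5% and 7.57% lower in YTHDF3-ADAR than in YTHDF2-ADAR polysome and total RNA, 11.9% and 11.6% were higher and 11.4% and 6.52% lower than in YTHDF1-ADAR, and 0.761% and 0.545% were higher and 1.59% and 1.28% lower in YTHDF2-ADAR than in YTHDF1-ADAR. The median log2 fold change of the 58 genes was 0.880 and 1.054 for YTHDF3-ADAR over YTHDF2-ADAR in polysome and total RNA, and 0.934 and 0.655 for YTHDF3-ADAR over YTHDF1-ADAR, beside -0.018, 0.015, -0.009 and 0.019 over all genes. Comparisons that share a line share its libraries. Other markers moved with the line: the sum of 6 markers of other cells was 18 to 36 CPM in the YTHDF3-ADAR libraries and 5.95 to 10.8 CPM in those of the other lines, mostly COL1A1, a collagen chain, at 16.8 to 34.5 CPM and 4.94 to 10 CPM. The 35 brain markers summed to 203 to 229 CPM in YTHDF3-ADAR libraries and 137 to 222 CPM in the others. Their part in the differences was not tested.

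Leaving out the 4 libraries shrank these medians to 0.422 and 0.638, and 0.534 and 0.318. The calls then numbered 12 and 15 for YTHDF3-ADAR against YTHDF2-ADAR (6.70% and 4.85% of all genes) and 11 and 4 for YTHDF3-ADAR against YTHDF1-ADAR (7.21% and 2.97%). For YTHDF2-ADAR against YTHDF1-ADAR 1 gene, ADARB1, was called in each RNA (0.416% and 0.250%). In polysome RNA the YTHDF3-ADAR against YTHDF2-ADAR count was 8, 4, 8, 4 and 7 without YTHDF2-ADAR replicates 1, 2 and 3 and YTHDF3-ADAR replicates 2 and 3, and the YTHDF3-ADAR against YTHDF1-ADAR count was 5, 6, 4 and 7 without YTHDF1-ADAR replicates 2 and 3 and YTHDF3-ADAR replicates 2 and 3. In total RNA the counts were 6, 8, 7 and 6 without YTHDF2-ADAR replicates 2 and 3 and YTHDF3-ADAR replicates 2 and 3, and 4, 3, 3 and 3 without YTHDF1-ADAR replicates 2 and 3 and YTHDF3-ADAR replicates 2 and 3. The share of all genes called without each single library is not given here, so nothing about the members is read from these lower counts.

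**Figure D5:**
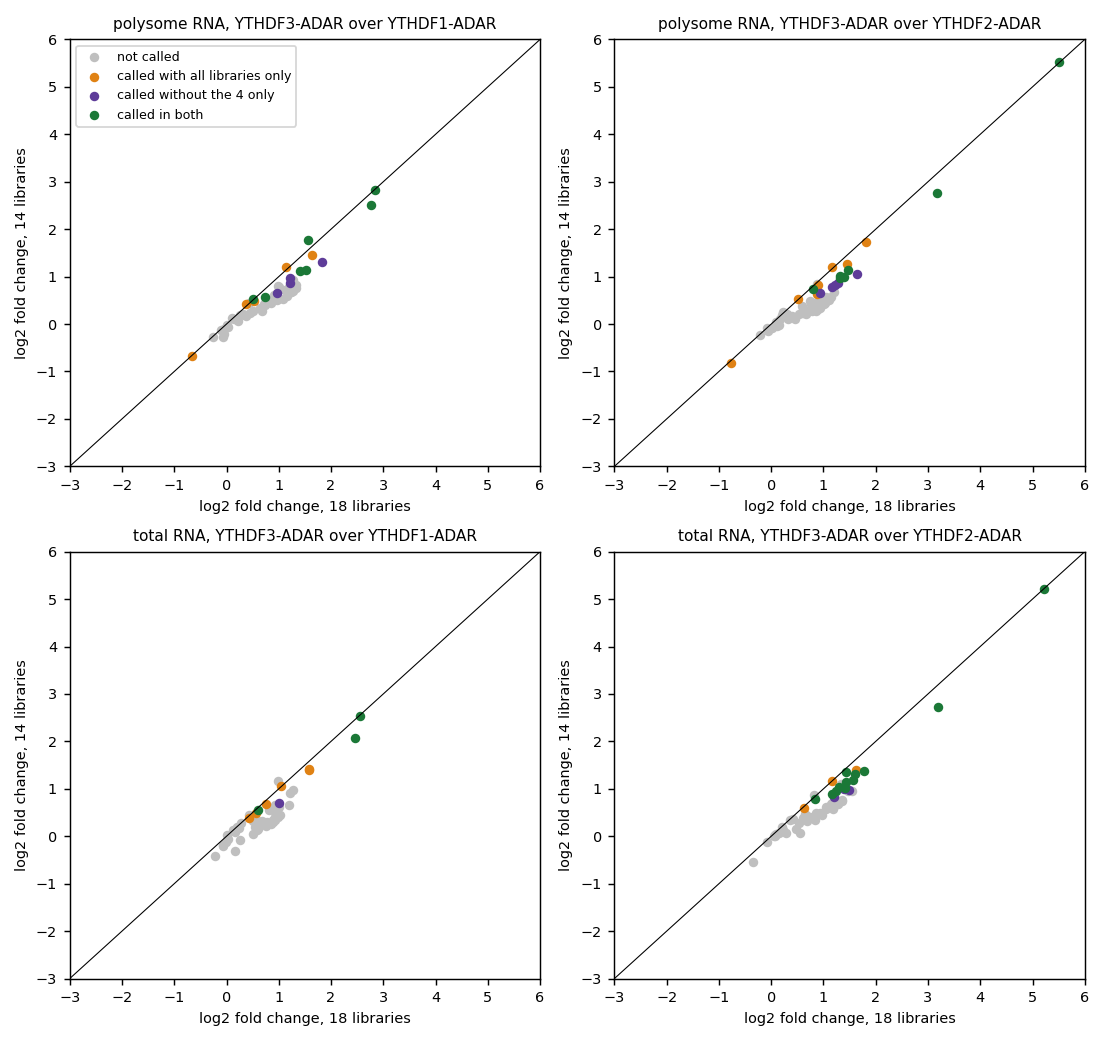
Log2 fold change of the 58 genes between lines with all 18 libraries (x axis) and without the 4 libraries that stood apart (y axis), for YTHDF3-ADAR over YTHDF1-ADAR (left) and over YTHDF2-ADAR (right), in polysome RNA (top) and total RNA (bottom); colours mark adjusted p under 0.05 by edgeR. Most points lie below the diagonal, so the folds were smaller without the 4 libraries, while ADARB1 at 5.51 and 5.23 over YTHDF2-ADAR stayed on it.

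ADARB1 had the largest differences among the 58. It had 1410, 1580 and 1530 CPM in YTHDF3-ADAR, 32.4, 33.8 and 32.7 CPM in YTHDF2-ADAR and 226, 198 and 209 CPM in YTHDF1-ADAR polysome RNA, and the groups did not overlap. Total RNA held 1080, 1640 and 1650 CPM with YTHDF3-ADAR, 40.5, 38.7 and 37.5 CPM with YTHDF2-ADAR, and 268, 237 and 238 CPM with YTHDF1-ADAR. In polysome RNA the log2 fold change was 5.51 ± 0.16 for YTHDF3-ADAR over YTHDF2-ADAR (edgeR adjusted p = 2.95e-12), 2.83 ± 0.14 over YTHDF1-ADAR (adjusted p = 6.25e-09) and -2.68 ± 0.14 for YTHDF2-ADAR over YTHDF1-ADAR (adjusted p = 1.26e-08). ADARB1 was thus highest in the line where its editing was highest. The counts do not separate a fusion transcript from the cells' own ADARB1.

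PRKCB had 20.9, 34.0 and 30.2 CPM in YTHDF3-ADAR, 3.94, 1.20 and 4.38 CPM in YTHDF2-ADAR and 5.20, 4.71 and 2.49 CPM in YTHDF1-ADAR polysome RNA, and every YTHDF3-ADAR library lay above the others. The log2 fold change was 3.18 ± 0.57 over YTHDF2-ADAR (edgeR adjusted p = 0.00165) and 2.77 ± 0.56 over YTHDF1-ADAR (adjusted p = 0.00313). It was 2.77 and 2.52 without the 4 libraries, with adjusted p = 0.000562 and 0.00105 by edgeR. PRKCB had 35 edited sites in the line where it was highest, and 1 in YTHDF1-ADAR cells.

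NDRG4 had 24.1, 26.7 and 24.1 CPM in YTHDF3-ADAR, 11.7, 5.41 and 12.9 CPM in YTHDF2-ADAR and 11.7, 11.1 and 5.54 CPM in YTHDF1-ADAR polysome RNA. Its YTHDF3-ADAR libraries lay above all others, by 1.32 ± 0.37 over YTHDF2-ADAR (log2, edgeR adjusted p = 0.0177) and 1.40 ± 0.37 over YTHDF1-ADAR (adjusted p = 0.0145). Without the 4 libraries the values were 1.02 and 1.13, with adjusted p = 0.00363 and 0.00186 by edgeR. DLG4 rose by 1.40 ± 0.49 (edgeR adjusted p = 0.046) and 1.51 ± 0.49 (adjusted p = 0.0355) over YTHDF2-ADAR and YTHDF1-ADAR, with 17.3, 21.5 and 23.7 CPM in YTHDF3-ADAR, 10.6, 3.09 and 10.3 CPM in YTHDF2-ADAR and 10.8, 8.10 and 3.01 CPM in YTHDF1-ADAR polysome RNA.

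Of the genes just named, DLG4 was among the 25 that collapsed in the 4 libraries, and ADARB1, PRKCB and NDRG4 were not. Further genes outside the 25 also differed. LLGL2 had 15, 21.9 and 20.4 CPM in YTHDF3-ADAR, 11.6, 10.1 and 11.1 CPM in YTHDF2-ADAR and 13.9, 13.5 and 12.3 CPM in YTHDF1-ADAR polysome RNA, a log2 fold change of 0.80 ± 0.17 over YTHDF2-ADAR (edgeR adjusted p = 0.0036) and 0.53 ± 0.16 over YTHDF1-ADAR (adjusted p = 0.0304). TMEM54 was 0.90 ± 0.25 higher in YTHDF3-ADAR than in YTHDF2-ADAR polysome RNA (edgeR adjusted p = 0.0159) and 1.42 ± 0.25 higher in total RNA (adjusted p = 0.00132). Without the 4 libraries the call of LLGL2 over YTHDF1-ADAR (edgeR adjusted p = 0.149) and that of TMEM54 in polysome RNA (0.108) were lost. NFKB2 had 11.4, 31.5 and 26.0 CPM in YTHDF3-ADAR against 11.1, 8.88 and 11.5 CPM in YTHDF1-ADAR polysome RNA, so that replicate 1 lay within the range of YTHDF1-ADAR, and its log2 fold change was 1.13 ± 0.33 (edgeR adjusted p = 0.0222, and 0.0984 without the 4 libraries). LAMA1, a laminin chain, had the same split within YTHDF3-ADAR, at 11.9, 42.1 and 39.2 CPM in polysome RNA. RPS16 was the 1 gene lower in YTHDF3-ADAR polysomes, by -0.77 ± 0.20 against YTHDF2-ADAR (edgeR adjusted p = 0.0117) and -0.67 ± 0.20 against YTHDF1-ADAR (adjusted p = 0.0245), beside 54 and 53 of 75 ribosomal protein genes lower and 0 higher. Neither RPS16 call held without the 4 libraries (adjusted p = 0.0672 and 0.11 by edgeR).

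Other calls were higher in YTHDF3-ADAR cells too. SCN4B had 2.50, 5 and 4.74 CPM in YTHDF3-ADAR, 1.68, 1.09 and 1.71 CPM in YTHDF2-ADAR and 1.42, 1.57 and 0.917 CPM in YTHDF1-ADAR polysome RNA, so that all YTHDF3-ADAR libraries lay above the others. It was called against both lines in both RNAs (log2 fold changes of 1.46 to 1.64), and in none of the 4 without the libraries that stood apart (edgeR adjusted p = 0.0536 to 0.0917). PPP1R1A was 1.44 ± 0.30 higher than in YTHDF2-ADAR total RNA (edgeR adjusted p = 0.0043) and 0.88 ± 0.30 higher in polysome RNA (adjusted p = 0.0391), of which the second was lost without the 4 libraries (0.0633). RASD2 and CRYM were higher than in YTHDF2-ADAR cells in both RNAs, and CAMK2B, CSRP1 and PTK2B in total RNA, and these calls held without the 4 libraries. KIF5A was 0.73 ± 0.24 higher than in YTHDF1-ADAR polysome RNA (edgeR adjusted p = 0.0368, and 0.049 without the 4 libraries). The calls of GFY and SYT7 were lost without them.

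Several of the 59 genes are neighbours in the genome. In 4 pairs, both genes lie tail to tail within 2000 bases of each other, in GRCh38 coordinates of the annotation. PDE1B (chr12:54549601-54579239, plus strand) and PPP1R1A (chr12:54575387-54588659, minus strand) overlap by 3853 bases. NFKB2 (chr10:102394110-102402524, plus) ends 92 bases from PSD (chr10:102402617-102421539, minus), GFY (chr19:49423749-49428987, plus) 413 bases from SLC17A7 (chr19:49429401-49442360, minus), and FAM180B (chr11:47586678-47589194, plus) 472 bases from C1QTNF4 (chr11:47589667-47594411, minus). FAM180B was edited at 96.1% and 94.9% over 6 sites in YTHDF3-ADAR cells although it had 0 to 6 counts per library, while C1QTNF4 had 95.8% and 94.4% over 4 sites. GFY, at 0.0389 to 0.401 CPM, was edited at 76.5% and 89.4% over 2 sites in YTHDF3-ADAR cells and at 82.1% and 79.8% over 2 sites in YTHDF1-ADAR cells, beside SLC17A7 at 85.85% and 84.6% in YTHDF3-ADAR cells. TMEM54 overlaps HPCA, a neuronal calcium sensor gene on the other strand, by 3848 bases, and CNIH2 overlaps YIF1A, just outside the threshold, by 722. GNG3 lies within HNRNPUL2-BSCL2 on the other strand. On the same strand, ADORA2A overlaps SPECC1L-ADORA2A by 24478 bases and SNORC overlaps GIGYF2 by 3336, and strand does not separate the reads of these. In all, 33 of the 59 overlap another annotated gene and 15 have a tail-to-tail protein-coding neighbour within 2000 bases. The library kit keeps strand, but no source used here gives the strand setting of counting or site calling, so reads and sites of such pairs may be assigned to either gene.

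Of 9 lists of genes tied to editing, m6A, ribosomes and noncoding RNA, 2 held a member. The 59 are 0.677% of all listed genes, and lists of 18 to 75 genes are too short to be read against that share. Of 19 ADAR enzymes and regulators, ADARB1 alone met the rule, and of 75 ribosomal protein genes RPS16 alone. None of 31 natural recoding targets did, with a highest lower value of 5.82% (NOVA1) in YTHDF3-ADAR, 2.43% (CYFIP2) in YTHDF2-ADAR and 4.97% (OGFOD3) in YTHDF1-ADAR cells. Among 25 m6A writers, erasers and readers, the highest were HNRNPC with 11.8% and 10.2% in YTHDF3-ADAR and YTHDF2-ADAR cells and YTHDF1 with 17.6% in YTHDF1-ADAR cells. The 24 known m6A or YTHDF targets peaked at 18.2% for IRS2 in YTHDF3-ADAR cells, the 26 genes with Alu-rich ends at 11.6% for NUP43 in YTHDF2-ADAR cells, and the 22 YTHDF effectors at 4.59% for CNOT6 in YTHDF1-ADAR cells. The 22 genes of double-stranded RNA sensing reached 2.87% (MAVS, YTHDF3-ADAR), and of 18 nuclear long noncoding RNAs only TUG1 was listed, at 0.613% in YTHDF3-ADAR and 3.15% in YTHDF1-ADAR cells.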

How the data were processed

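Counts of reads per gene and library were deposited by the authors as raw values, covering 60675 rows of human genes plus 1 row without a human gene (at most 1.48e-05% of a library). Per the submitters' processing notes, STAR 2.7.7, featureCounts 2.0.1 and DESeq2 were used with GRCh38 (hg38). The authors' editing tables hold a score per gene, line and RNA, its site number, an adjusted p-value and a column headed as log2 that held, when recomputed, a natural log odds ratio of score per site. Site calling and the combining of replicates are not described in the sources used here. The authors' comparison table, with its signal (mean normalised count), log2 fold change and p-value, served only for gene symbols and gene types, since its contrast is not named. Gene coordinates were those deposited with the counts.

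Counts were fitted in R 4.3.3 with edgeR 4.0.16: filterByExpr with a minimum count of 10 left 26804 genes, TMM factors scaled all 18 libraries, and 1 robust quasi-likelihood fit held 6 group means. Adjusted p under 0.05 by Benjamini-Hochberg over all tested genes was called. Standard errors are the log2 fold change over the root of F. Levels are CPM with TMM factors and SD over 3 libraries. The fit was tested on simulated data. Without molecular identifiers, reads are not independent molecules.

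The 59 genes and the lists (9 lists, covering editing, m6A, ribosomal and noncoding genes) were chosen with earlier results of these data known. Genes named are those that met the rule in at least 2 lines, the 10 most edited with at least 2 sites and the 3 with most sites per line, the 3 nearest to the threshold on each side, list members, and the largest calls where log2 CPM averaged 2 or more. Other genes named, GNG3, the brain markers and neighbours included, were chosen after their values were seen.

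Within a line, polysome and total RNA libraries with 1 number deviated together from their group means (r = 0.200 to 0.671 in 9 pairs), so the number paired them within a line, although only 6 of 9 polysome libraries were closest to their own number. Across lines r ran from -0.364 to 0.508 over 18 pairs, and the number paired nothing. No duplicate libraries were found (chi-square per degree of freedom at least 6.25). Alternatives were DESeq2 1.42.0, its size factors, no factors, no filter, the libraries compared alone, a replicate block, genes with 2 or more sites, and leaving out each library. Leaving out the 4 libraries that stood apart was chosen after seeing the data. Results of some genes are not reported here, and the plots that name genes leave them out.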

Additional observations from a re-analysis of the deposited data

How the results depend on the processing

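The number of genes that met the rule was 73 at a threshold of 40%, 51 at 60%, 42 with at least 2 sites and 64 by a pooled rate, against 59, and 9 met it in all lines. Counts of called genes on polysomes against total RNA, in the order YTHDF3-ADAR, YTHDF2-ADAR and YTHDF1-ADAR (3 each), became 10, 8 and 18 with a replicate block, 4, 9 and 9 without normalization factors, 0, 7 and 7 with the libraries of each comparison alone, 0, 1 and 1 among genes with at least 2 sites, and 2, 1 and 2 without the 4 libraries that stood apart. In total RNA, YTHDF3-ADAR against YTHDF2-ADAR (15) gave 24 without normalization factors, 8 without the filter, 7 alone and 4 with the block. YTHDF3-ADAR against YTHDF1-ADAR (9) gave 21, 5, 2 and 2, and 4 without the 4 libraries. In polysome RNA, YTHDF3-ADAR against YTHDF2-ADAR (14) gave 9 without the filter and 6 alone, and YTHDF3-ADAR against YTHDF1-ADAR (12) gave 7 without the filter. YTHDF2-ADAR against YTHDF1-ADAR (2 in each RNA) gave 1 with the block and 1 without the 4 libraries. Shares of all genes stand above for the block and the fit without factors on polysomes against total RNA, and for the fits without the 4 libraries. For the other refits here, and for each left-out library below, that share is not given. Nothing about the members is read from those counts. The causes were not tested, and numbers do not pair libraries across lines.

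Leaving out 1 library at a time gave 1 to 4, 2 to 3 and 3 to 3 calls on polysomes against total RNA, 6 to 19, 3 to 13 and 2 to 3 in total RNA between lines (YTHDF3-ADAR against YTHDF2-ADAR, YTHDF3-ADAR against YTHDF1-ADAR, YTHDF2-ADAR against YTHDF1-ADAR), 4 to 15, 4 to 12 and 2 to 2 in polysome RNA, and 0 to 1, 0 to 1 and 0 to 0 for the difference of the polysome change. Of 646 recomputed fold changes of 50 named results, 448 kept direction and call, 198 kept direction and lost the call, and 0 reversed. Low counts limit genes such as GFY and FAM180B, and unknown depth limits all editing values.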
